A study of Bos taurus with 61 samples.

Results

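A set of 6 genes that control the formation and size of skeletal muscle were followed through 8 tissues of Brangus heifers, before and after puberty. They were the paired box factor PAX7, the 4 myogenic regulatory factors MYF5, MYOD1, MYOG and MYF6, and the growth inhibitor MSTN, that is, 6 of 24616 genes measured. Members were found by symbol, by bovine protein entry name or by the pairing of gene identifiers with symbols in the study, without use of their levels, and each matched 1 gene. The animals were 4 pre-pubertal (PRE) and 4 post-pubertal (POST) heifers, all 3/8 Brahman and 5/8 Angus. PRE heifers had no corpus luteum, whereas POST heifers were older and heavier and were slaughtered in the mid-luteal phase of an estrous cycle. They reached puberty, and were harvested, over the months after the PRE heifers, so stage, age and time of harvest cannot be told apart. Longissimus dorsi muscle, a back muscle taken between 2 ribs, was sampled with liver, adipose tissue of the abdominal cavity, hypothalamus, pituitary gland, ovary, uterus and endometrium, for 61 libraries, 30 PRE and 31 POST. Each tissue and stage had 4 libraries by the labels, except endometrium with 3 in each stage and PRE pituitary gland with 3.

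In vertebrate embryos and in muscle repair, skeletal muscle is built by a relay of transcription factors. PAX7 marks satellite cells, the stem cells that lie beside the fibres, MYF5 and MYOD1 commit cells to the myoblast fate, and MYOG and MYF6 drive the exit from the cell cycle and the formation of fibres, where MYF6 remains the main factor of adult muscle. MSTN, or myostatin, is a secreted TGF-beta family protein that limits muscle mass, and loss-of-function alleles of it cause double muscling in cattle.

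The values are the means over the libraries of each tissue and stage that the authors made, as mean unique reads and as mean RPKM, a read count scaled to exon length and to the reads of the library. No value of a single animal was used, so no mean here has an error or a number of replicates, no p-value could be computed, and 1 animal may carry any of the differences. The labels give 4 libraries to each hypothalamus group and 3 to PRE pituitary gland, but the mean reads of these groups were multiples of 1/3 and 1/4. The group totals of mean unique reads lay between 17109554 (PRE endometrium) and 27132722 (PRE adipose tissue). Each list of tissue markers summed higher in its own tissue than in any other, at 94393 and 85978 RPKM for 15 fibre genes in PRE and POST muscle. POST ovary stood apart, since its 4 pituitary hormone genes summed to 29708 RPKM, against 151 RPKM in PRE ovary, and a mean without the library or libraries that carry them could not be had. Differences between stages are given as POST minus PRE on log2(RPKM + 0.2). Genes were compared in tissues where at least 1 of the stages had a mean of 0.2 RPKM or more, the level the study takes as expressed. A difference of 4-fold or more was counted, by a rule of size and not a test. In bulk tissue, fewer cells of a type and less RNA per cell cannot be told apart. Intervals on reads are exact 95% Poisson or binomial intervals and cover counting error only.

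On the UMD3.1 assembly MYF6 lay on chromosome 5 from 10330469 to 10331983 and MYF5 from 10339425 to 10342660, with 7441 bp between them. This is the MYF6 and MYF5 locus, in which the genes stand side by side and, in the mouse, share a long array of enhancers. MYOD1 lay on chromosome 15 from 35331401 to 35334046 and MYOG on chromosome 16 from 596920 to 599757. MSTN and PAX7 lay far apart on chromosome 2, MSTN from 6213566 to 6220196 and PAX7 from 134512629 to 134616219. PAX7 was the longest of the 6, with a span of 103591 bp against 1515 to 6631 bp for the others.

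All 6 genes were expressed in longissimus dorsi muscle in both stages, over a range of more than 2 orders of magnitude. MYF6 led with a mean of 141 RPKM in PRE and 139 RPKM in POST heifers, above 97.3% and 97.2% of the genes expressed in muscle. MYOG followed at 11.2 and 13.5 RPKM, and MYOD1 at 6.80 and 6.50 RPKM. MSTN stood at 4.16 and 3.50 RPKM. This is near the middle of the genes expressed in muscle, with 50.4% and 45.5% of them below it. MYF5, at 0.568 and 0.785 RPKM, and PAX7, at 0.473 and 0.537 RPKM, were the lowest, above 9.50% to 15.8% of the genes expressed there. So the order was MYF6, MYOG, MYOD1, MSTN, MYF5 and PAX7 in both stages. The late factor MYF6 exceeded MYOG 12.6-fold and 10.3-fold, MYOD1 20.7-fold and 21.3-fold, and MYF5 248-fold and 177-fold on the RPKM scale.

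**Figure D1:**
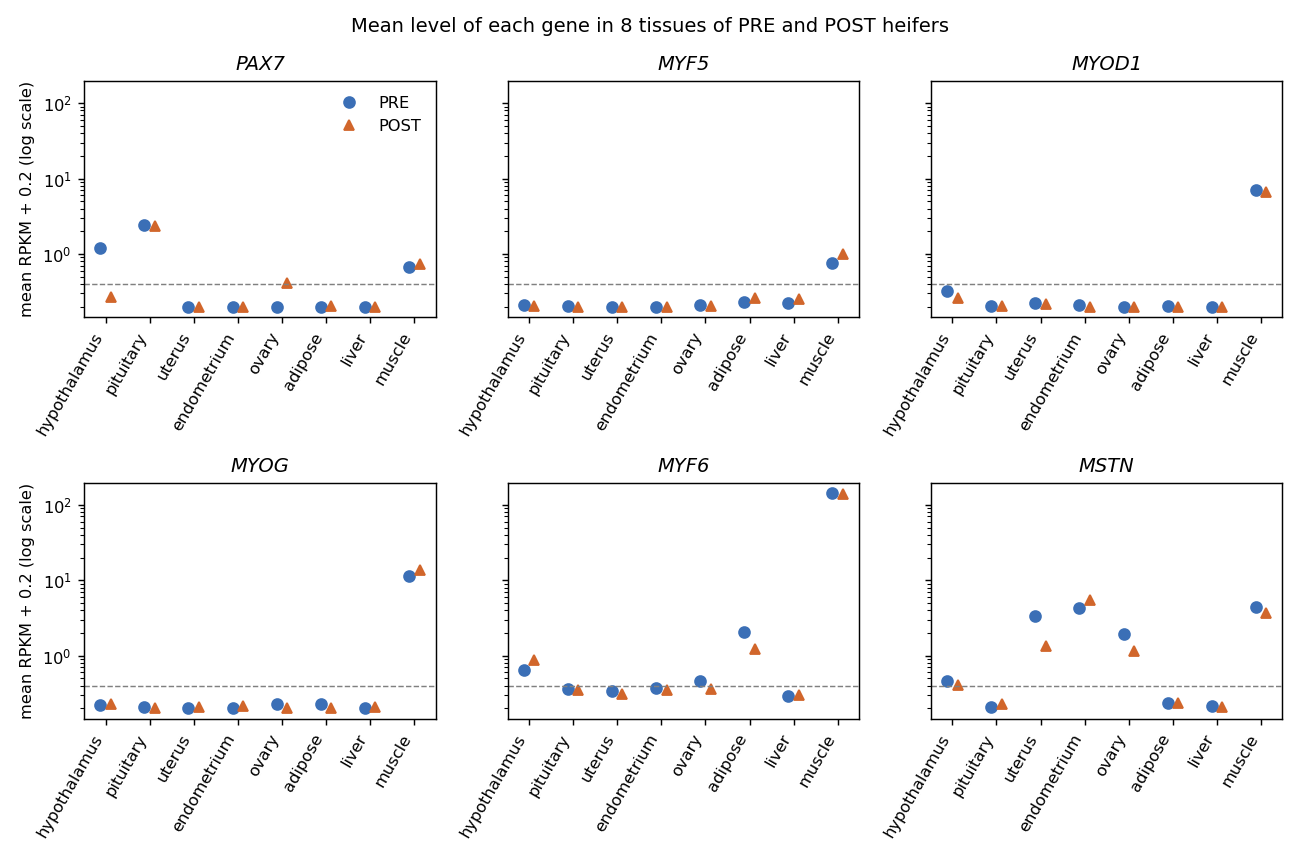
Mean RPKM plus 0.2, on a log axis, of the 6 genes in 8 tissues; circles are PRE and triangles POST group means, each over 3 or 4 libraries, and the dashed line marks an RPKM of 0.2. MYF5, MYOD1 and MYOG pass the line in muscle alone, MYF6 also in adipose tissue, hypothalamus and PRE ovary, MSTN also in hypothalamus, uterus, endometrium and ovary, and PAX7 is highest in pituitary gland.

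Between the stages the muscle levels of the 6 genes moved little. None passed the 4-fold rule or a 2-fold rule, where 0.729% and 3.53% of all 13300 genes compared in muscle did. MYF5 had the largest difference, 0.36 on the log2 scale, from a mean of 40.3 reads per library in PRE to 54.3 in POST heifers. MYOG differed by 0.27, with 432 and 529 reads, and PAX7 by 0.13, with 90.8 and 95.3 reads. MYOD1 and MYF6 lay at -0.06 and -0.02, that is, at nearly the same level in both stages. MSTN differed by -0.24, with 308 reads in PRE and 273 in POST heifers. For MSTN the ratio of reads scaled to the group totals was -0.21 on the log2 scale, with a counting interval from -0.33 to -0.09. Of all genes compared in muscle, 22.9% lay at least as far apart as MYF5 and 36.9% as far apart as MSTN. For comparison, the 15 fibre genes had a median difference of -0.05, with a range from -0.32 to 0.39.

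The PRE and POST muscle samples differed in other tissue markers. Of 4 smooth muscle genes matched, MYH11, a smooth muscle myosin, had 6.90 RPKM in PRE and 173.6 RPKM in POST muscle, CNN1 12.3 and 149.7 RPKM, and ACTG2 3.16 and 77.2 RPKM. Only DES, which skeletal fibres also make, was near level, at 2519 and 2814 RPKM. Of the adipocyte genes ADIPOQ stood at 93.1 and 11.1 RPKM, CIDEC at 51.1 and 4.33 RPKM and LEP at 1.71 and 0.213 RPKM. So POST muscle had more smooth muscle RNA and less adipocyte RNA, and the part of either in the differences of muscle genes was not tested.

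MYOG, MYOD1 and MYF6 were genes of muscle in both stages. Each stood at least 4-fold above every other tissue, as 2.45% of the genes expressed in PRE and 2.24% of those expressed in POST muscle did. MYF6 was 75.4 and 138 times as high in muscle as in adipose tissue, the next tissue. MYOG was 360 and 480 times as high as in its next tissue, where it had only 1.25 and 1.33 reads per library. MYOD1 was 54.4 and 110 times as high as in hypothalamus. MYF5 was 16.7 and 13.5 times as high as in adipose tissue, but with 0.2 added to its low values the log2 difference was 1.71 and 1.93, just under the rule. Of the RPKM summed over the 8 tissues, with the stages averaged, muscle held 99.4% for MYOG, 98.2% for MYOD1, 98.1% for MYF6 and 87.1% for MYF5.

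The entropy over tissues, which is 0 for a gene found in 1 tissue and 3 for a gene that is level in all 8, was lowest for MYOG, the gene with the highest muscle share. It was 0.244 for MYOG and 0.376 for MYOD1, values reached by 0.21% and 0.39% of 17183 expressed genes. It was 0.918 for MYF5, 1.54 for MYF6, 1.63 for PAX7 and 2.20 for MSTN. MYF6 came after MYF5 here because the entropy was taken on log2(RPKM + 1), on which its adipose and brain levels weigh against a high muscle level. On linear RPKM its entropy was 0.178 and that of MYF5 0.782.

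MSTN and PAX7 did not share this pattern. Muscle held 31.1% of the summed RPKM of MSTN and endometrium 38.1%, with 17.4% in uterus and 10.9% in ovary. For PAX7 the pituitary gland held 65.5%, hypothalamus 16.01% and muscle 15.3%. The muscle level of MSTN was above that of the next tissue by 0.01 on the log2 scale in PRE and below endometrium by 0.56 in POST heifers. That of PAX7 was below pituitary gland by 1.83 and 1.67.

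The levels outside muscle are set here beside those of adult fibre genes, and the part of muscle RNA in them was not tested. In the tissues other than muscle the 15 fibre genes stood at a median of 0.0253% to 0.113% of their muscle level. Read against them, MYF6 in pituitary gland, uterus, endometrium and liver, at 0.0638% to 0.125% of its muscle level, was within or close to the range of the fibre genes. In PRE adipose tissue MYF6 stood at 1.33% of its muscle level, while the fibre genes ran from 0.0744% to 0.220%. In POST adipose tissue it stood at 0.726%, against 0.0305% to 0.146%. MSTN in endometrium, at 99.3% and 150% of its muscle level, and PAX7 in pituitary gland, at 463% and 399%, stood above all 15 fibre genes.

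**Figure D2:**
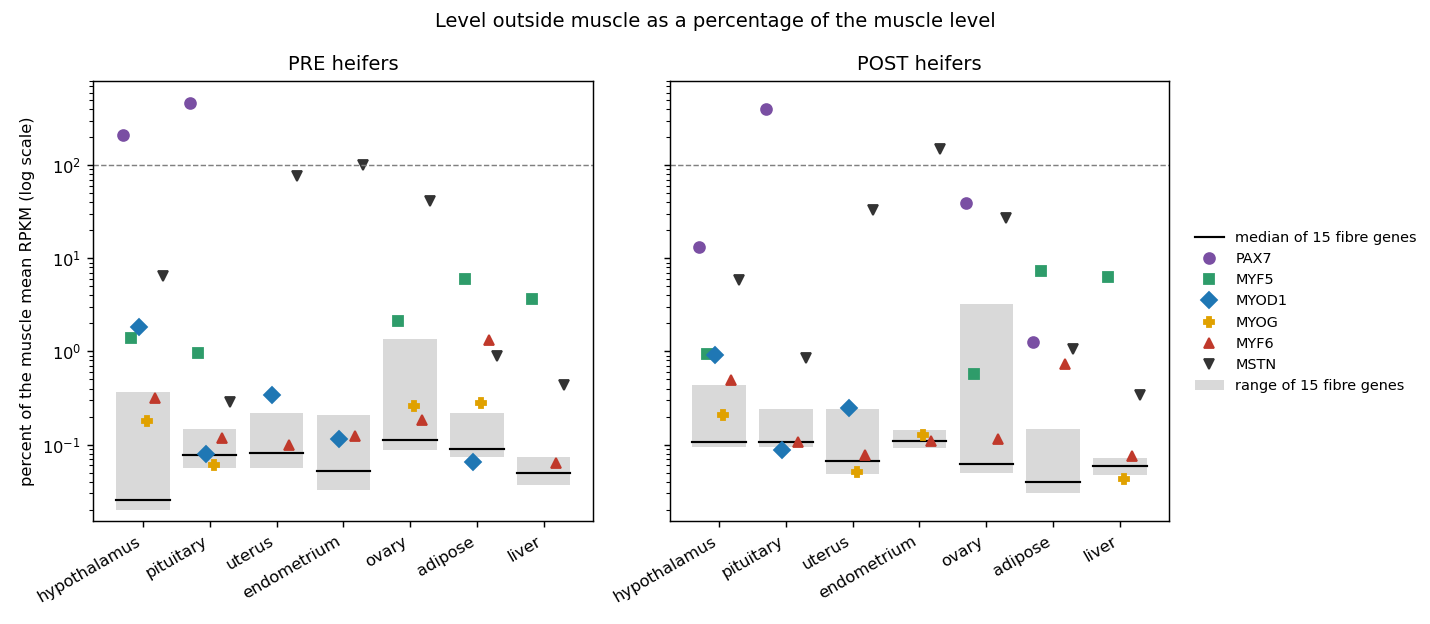
Level in each tissue as a percentage of the muscle mean RPKM of the same stage, on a log axis; grey bars span 15 fibre genes, black lines are their medians, symbols are the 6 genes, and values at 0 are not drawn. MSTN in uterus, endometrium and ovary, PAX7 in pituitary gland and MYF6 in adipose tissue lie above the fibre genes, and MYF6 in uterus lies among them.

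PAX7, the satellite cell factor, was highest in the pituitary gland. Its mean there was 2.19 RPKM in PRE and 2.14 RPKM in POST heifers, a difference of -0.03 on the log2 scale. It was not 4-fold above every other tissue, as 0.674% and 0.544% of the genes expressed in PRE and POST pituitary gland were. In the mouse PAX7 is also a factor of the pituitary, where it selects the melanotrope cells of the intermediate lobe. The gland was taken with its anterior and posterior parts, and POMC, the hormone precursor of melanotropes and corticotropes, stood there at 1563 and 2986 RPKM. Its reads per library differed more, at 420 in PRE and 262.5 in POST glands, a ratio scaled to the group totals of -0.75 on the log2 scale with an interval from -0.86 to -0.63, so that reads and RPKM of PAX7 do not give the same difference. The glands also differed in markers of other cells. Markers of fibroblasts summed to 4244 RPKM in PRE and 237 RPKM in POST pituitary gland, and those of Schwann cells and nerve to 196 and 33.7 RPKM. Of all genes compared, 2.55% passed the 4-fold rule there.

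In hypothalamus PAX7 was the 1 gene of the 6 that passed the 4-fold rule between stages in any tissue. Its mean was 0.989 RPKM in PRE and 0.071 RPKM in POST heifers, a log2 difference of -2.13. This was a rare size of difference in hypothalamus, where 0.416% of genes passed the rule, 0.202% on the side of lower POST values, and 0.358% lay as far apart as PAX7. The mean unique reads per library were 87.7 in PRE, with an interval of 77.4 to 98.9, and 11.7 in POST, with an interval of 8.13 to 16.2. The ratio of reads scaled to the group totals was -3.02 on the log2 scale, with an interval from -3.58 to -2.51, so counting error does not cover the difference.

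The hypothalamus samples of the stages also differed in their markers, and PAX7 is best known in the brain, in chick and mouse, from the dorsal midbrain. The peptide genes HCRT and PMCH of the lateral hypothalamus stood at 12.6 and 131 RPKM in PRE and at 115 and 507 RPKM in POST samples. OXT stood at 557 and 1069 RPKM, and AVP moved the other way, from 928 to 663 RPKM. The pituitary hormone genes PRL, GH1 and CGA stood at 31.3, 7.24 and 1.3 RPKM in PRE and at 180, 72.7 and 7.2 RPKM in POST samples. POMC was near level, at 9.7 and 10.6 RPKM. The smooth muscle markers MYH11, at 17.5 and 3.29 RPKM, and CNN1, at 13.5 and 3.64 RPKM, were on the same side as PAX7. Of the 8 labelled hypothalamus libraries 2 were sequenced on another instrument with shorter reads. Which libraries entered the hypothalamus means is not known, so these 2 may not be among them. The part of the marker differences or of the instrument in the PAX7 difference was not tested.

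The other PAX7 values need a limit stated. In uterus, endometrium, PRE ovary, PRE adipose tissue and liver PAX7 was listed at an RPKM of 0 with 6 to 23.8 mean unique reads per library. Scaled to the group total, its reads were 4.72 to 9.42 times the RPKM in hypothalamus, pituitary gland and muscle, 14.1 times in POST ovary and 108 times in POST adipose tissue. For MSTN this factor kept between 3.095 and 3.56 in muscle, uterus, endometrium and ovary, where the gene had 69.5 to 348 reads. PAX7 reads therefore include some that its RPKM did not take, and a zero of PAX7 is a listed value rather than an absence of reads. Of all genes with reads, 7.45% to 10.9% were listed at an RPKM of 0, by group. In ovary PAX7 went from a listed 0 to 0.21 RPKM, just at the limit of expression, with 9 and 69.8 reads and a log2 difference of 1.04. This passed a 2-fold rule, which 6.52% of genes in ovary passed, but not the 4-fold rule, which 1.94% passed. Pituitary transcripts were higher in the same POST ovary samples. PRL stood there at 15908 RPKM, GH1 at 11453 RPKM, CGA at 2079 RPKM and POMC at 268 RPKM, against 106, 30.4, 3.96 and 10.7 RPKM in PRE ovary. POST pituitary gland had 167975, 52868, 4453 and 2986 RPKM of these genes, and 2.14 RPKM of PAX7. The part of pituitary RNA in the PAX7 value of POST ovary was not tested.

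**Figure D3:**
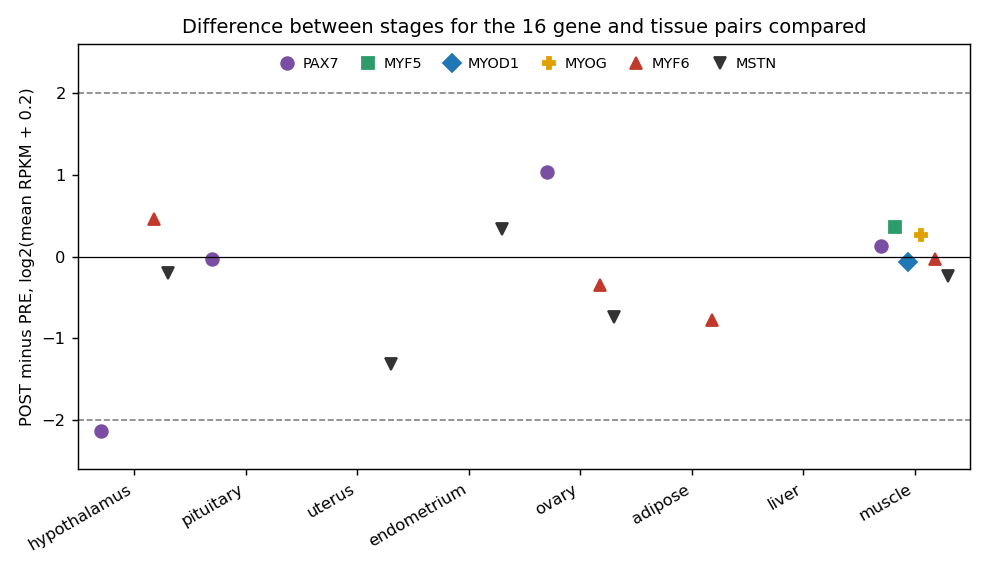
POST minus PRE difference in log2(mean RPKM + 0.2) for the 16 pairs of a gene and a tissue that reached 0.2 RPKM in 1 stage or both; each symbol is 1 gene, and dashed lines mark 4-fold. PAX7 in hypothalamus, at -2.13, lies past the line, and no gene lies past 2-fold in muscle.

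MYF5 and MYOD1, the commitment factors, were under 0.2 RPKM in every tissue except muscle. MYF5 had no read in uterus and endometrium in either stage, which allows up to 0.922 reads per library in uterus and 1.23 in endometrium. It had 2.25 and 4.25 reads per library in adipose tissue and 1.5 and 5.25 in liver, for 0.034 and 0.058 RPKM and 0.021 and 0.05 RPKM. MYOD1 had its highest level outside muscle in hypothalamus, at 0.125 RPKM from 7 reads in PRE and 0.059 RPKM from 2.67 reads in POST heifers. This was 1.84% and 0.907% of its muscle level and above all 15 fibre genes there. In ovary MYOD1 had no read in either stage. These are values of few reads, and none of them was compared between stages.

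MYOG, which drives the fusion of myoblasts, was under 0.2 RPKM outside muscle as well, with at most 1.33 reads per library in any group. By entropy and by share of the summed RPKM it was the gene of the 6 most confined to muscle in these group means. With 0.2 added to RPKM, MYF6 lay further above its next tissue. Its log2 difference was 6.09 in PRE and 6.85 in POST heifers, against 5.62 and 5.90 for MYOG.

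MYF6 was at or above 0.2 RPKM outside muscle in 3 tissues. In adipose tissue it had 1.87 RPKM in PRE and 1.01 RPKM in POST heifers, from 68.0 and 27.5 reads, a log2 difference of -0.78 that did not pass the 4-fold rule, which 2.09% of genes did. In hypothalamus it had 0.443 and 0.681 RPKM, from 11.3 and 18 reads, and in PRE ovary 0.259 RPKM. The hypothalamus difference was 0.45, and the counting interval of its reads, from -0.09 to 1.22, held 0. In ovary the difference was -0.35. The fibre genes moved in the same directions, with median differences of -1.15 in adipose tissue, 1.73 in hypothalamus and -0.77 in ovary. In hypothalamus MYF6 stood at 0.314% and 0.491% of its muscle level, above 14 and 15 of the 15 fibre genes. In ovary it stood at 0.184% and 0.115%, above 12 and 13 of them. The part of muscle RNA in these MYF6 levels was not tested.

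In adipose tissue the other factors were not at their muscle proportions to MYF6. Summed over the 4 libraries, PRE adipose tissue held 272 MYF6 reads and 5 MYOG reads, where the muscle proportion would give 28.4 MYOG reads. It held 1 MYOD1 read, against 22.4 at the muscle proportion, and 9 MYF5 reads, against 2.65. POST adipose tissue held 110 MYF6 reads with no MYOG and no MYOD1 read, against 14.2 and 9.17, and 17 MYF5 reads, against 1.46. The counting intervals were 1.62 to 11.7 for the 5 MYOG reads and 4.12 to 17.1 for the 9 MYF5 reads of PRE, and up to 3.69 for a count of 0 and 9.90 to 27.2 for the 17 MYF5 reads of POST heifers. So, scaled to MYF6, MYOG and MYOD1 were below and MYF5 was above the muscle proportion in adipose tissue. Other tissues departed from it too. Liver held 6 MYF5 reads in PRE, against 0.0974 at the muscle proportion, and 21 in POST heifers, against 0.186. PRE hypothalamus held 21 MYOD1 reads, against 2.80. In the adipose samples the median of the fibre genes was 0.0898% and 0.0399% of their muscle level. The part of muscle RNA in the adipose MYF6 level was not tested. Of the next genes of the locus, PTPRQ had its highest mean in POST muscle, at 0.416 RPKM, LIN7A in POST hypothalamus, at 5.10 RPKM, and ACSS3 in POST adipose tissue, at 79.4 RPKM.

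MSTN was expressed in the reproductive tract, in endometrium at 99.3% and 150% of its muscle level, in uterus at 75.6% and 32.8% and in ovary at 41.4% and 27.3%. In endometrium its mean was 4.13 RPKM in PRE and 5.26 RPKM in POST heifers, from 224 and 348 reads per library. The difference of 0.33 on the log2 scale is within those of most genes of this tissue, of which 63.0% lay at least as far apart, 23.9% passed a 2-fold rule and 6.54% the 4-fold rule. In uterus MSTN stood at 3.14 RPKM in PRE and 1.15 RPKM in POST heifers, from 207 and 94.3 reads. The log2 difference was -1.31, past a 2-fold rule, as for 12.6% of genes in uterus, and short of the 4-fold rule, which 2.94% passed. In ovary it stood at 1.72 and 0.955 RPKM, a difference of -0.74. The counting intervals of the reads in uterus, from -1.54 to -1.18, and in ovary, from -1.12 to -0.68, did not hold 0. The ovary samples differed in tissue, since those of POST heifers included the corpus luteum and those of PRE heifers did not. Of the ovary markers STAR stood there at 35.2 and 652 RPKM, INHA at 537 and 495 RPKM and CYP19A1 at 17.2 and 22.7 RPKM. The part of luteal tissue in the MSTN difference of ovary was not tested.

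The uterine samples differed in their smooth muscle markers. The 4 matched smooth muscle genes summed to 2399 and 2913 RPKM in uterus and to 1824 and 118 RPKM in endometrium, so PRE endometrium held smooth muscle RNA nearly as uterus did and POST endometrium little of it. In the same PRE and POST endometrium MSTN stood at 4.13 and 5.26 RPKM. The matched fibroblast markers summed to 5331 and 2538 RPKM there, although DCN among them stood at 801 and 868 RPKM. The part of these shifts in the MSTN levels was not tested. In hypothalamus MSTN was at 0.267 and 0.205 RPKM, a difference of -0.21. In pituitary gland, adipose tissue and liver it was under 0.2 RPKM, at 0.012 to 0.037.

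Over all members and tissues, 16 of 48 pairs of a gene and a tissue were compared between stages, and 1 of them passed the 4-fold rule and 3 a 2-fold rule. The 3 were PAX7 in hypothalamus, where 3.2% of all genes passed a 2-fold rule, PAX7 in ovary and MSTN in uterus. The other 32 pairs were under 0.2 RPKM in both stages. In liver, where all values were at or under 0.105 RPKM, no gene was compared.

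The partners of these genes were read from 4 lists, matched by symbol to the genes measured. Of 20 genes of satellite cells and the myogenic lineage 13 were matched and 11 compared in muscle, with a median difference of -0.04 beside 0.05 over all genes. None passed the 4-fold rule, which only 0.729% of all genes compared in muscle did. NOTCH3, a Notch receptor of satellite cells that vascular smooth muscle also makes, had the largest difference, from 2.59 to 7.84 RPKM, or 1.53. HEY1, a Notch target that helps to keep mouse satellite cells quiescent, stood at 3.91 and 2.06 RPKM, a difference of -0.87. The lineage factors LBX1 and EYA1 each differed by 0.13. EYA4 and HEYL differed by -0.23 and 0.18.

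Of 21 cofactors and inhibitors 14 were matched and compared, with a median of -0.07. None was past the 4-fold rule, as only 0.729% of all genes compared in muscle were. TCF3 and TCF12, the E proteins with which the myogenic factors pair on DNA, stood at 3.73 and 3.50 RPKM and at 9.29 and 9.34 RPKM. MEF2C, the cofactor that works with MYOG and MYF6, stood at 41.2 and 39.6 RPKM. Of the inhibitors, SNAI2, a repressor that in mouse myoblasts binds sites of MYOD1, stood at 7.94 and 3.55 RPKM, a difference of -1.12. MDFI, which binds the factors and holds them inactive, stood at 0.83 and 0.263 RPKM, a difference of -1.15. BHLHE40, BHLHE41 and ID2, which block the factors or their partners, had differences of 0.66, 0.55 and 0.41. The other matched inhibitors, HDAC9, TWIST1, MSC, HDAC5 and ID3, differed by -0.39, -0.37, -0.20, -0.19 and -0.03. So inhibitors lay on both sides, at under 4-fold. In PRE adipose tissue MDFI, SNAI2 and TWIST1 stood at 28.3, 32.9 and 14.8 RPKM, above their muscle levels. ID2, which was higher in POST muscle, stood at 23.5 RPKM there, and HDAC9 at 0.986 RPKM. The adipocyte markers were lower in POST muscle, and the part of adipocyte RNA in these differences was not tested.

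Of 20 targets of differentiation and fusion 18 were matched and compared, with a median of 0.04. CHRND, the delta subunit of the acetylcholine receptor, was the 1 gene past the 4-fold rule, as 0.496% of all genes in muscle were on the side of higher POST values, with 1.15 RPKM in PRE and 7.65 RPKM in POST muscle, a difference of 2.54. The other subunits did not move with it, CHRNA1 standing at 20.48 and 19.97 RPKM, CHRNB1 at 15.5 and 16.6 RPKM, CHRNE of the adult receptor at 10.6 and 12.6 RPKM and CHRNG of the fetal receptor at 0.845 and 0.72 RPKM. ANKRD1, a stress-responsive protein of the sarcomere, stood at 1150 and 641 RPKM, a difference of -0.84. CAV3, the caveolin of muscle, differed by -0.56, and DOK7, which activates the receptor kinase of the synapse, by 0.26. TMEM8C, or myomaker, the membrane protein of myoblast fusion, stood at 0.469 and 0.412 RPKM.

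**Figure D4:**
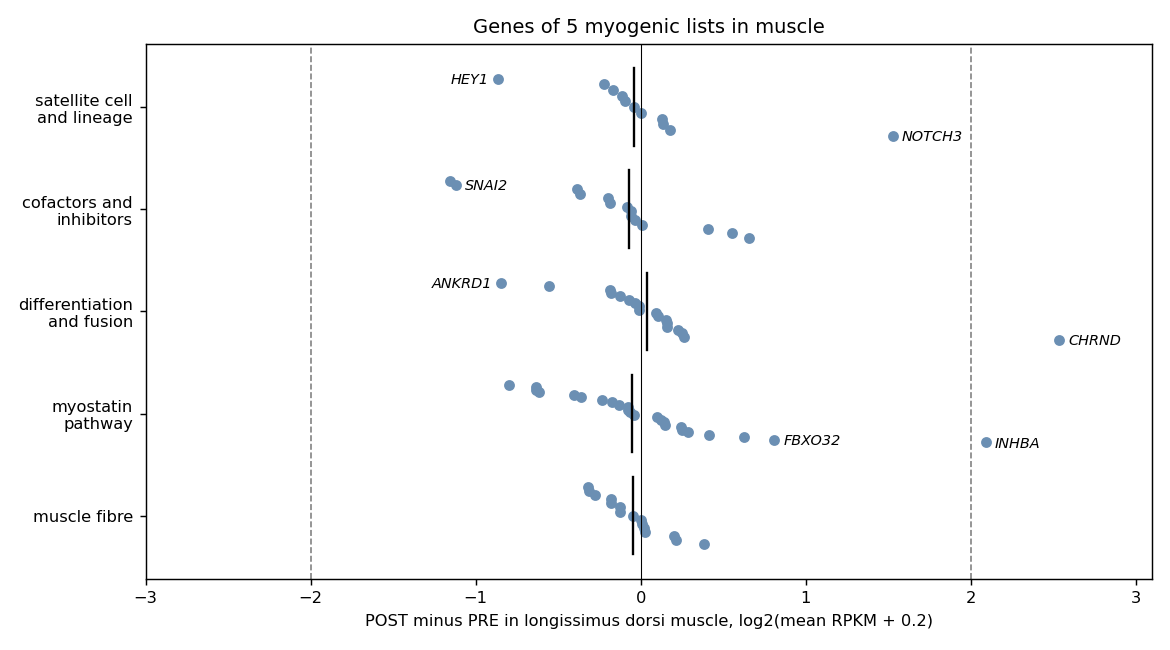
POST minus PRE difference in muscle of the genes that reached 0.2 RPKM in 5 lists, one point per gene, with the list median as a black line and 4-fold as dashed lines. CHRND, at 2.54, and INHBA, at 2.09, lie past 4-fold, and the medians of all 5 lists lie close to 0.

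Of 32 genes of the myostatin pathway 26 were matched, MSTN among them, and 24 were compared in muscle, with a median of -0.05. INHBA, the activin A subunit and a second ligand of the same receptors, was past the 4-fold rule, at 0.321 and 2.02 RPKM, a difference of 2.09. On the side of higher POST values 0.496% of all genes in muscle passed it. GDF11, the nearest relative of MSTN, stood at 8.58 and 13.3 RPKM, above MSTN in muscle in both stages. The type II receptors ACVR2A and ACVR2B stood at 3.39 and 3.29 RPKM and at 1.12 and 1.37 RPKM. The type I receptors ACVR1B and TGFBR1 stood at 2.04 and 2.78 RPKM and at 3.19 and 3.82 RPKM. None of these receptors lay 2-fold apart.

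The extracellular brakes and releasers of MSTN and its downstream genes moved by less than 2-fold in muscle. FST, or follistatin, which binds MSTN, stood at 4.46 and 2.80 RPKM, a difference of -0.64. BMP1, a protease that frees MSTN from its propeptide, differed by -0.64 as well. WFIKKN2, a binding protein of MSTN, stood at 6.47 and 5.00 RPKM, and SMAD3, which carries the signal to the nucleus, at 5.72 and 5.40 RPKM. FBXO32 and TRIM63, ubiquitin ligases of muscle protein breakdown, stood at 109 and 191 RPKM and at 182 and 195 RPKM, with differences of 0.81 and 0.10.

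In endometrium more genes of the list passed the 4-fold rule than in muscle, but so did more of all genes, 6.54% against 0.729%. Of 26 compared in endometrium 1 was past 4-fold higher and 4 lower in POST heifers, where 3.23% and 3.31% of all genes were. The list median there was 0.15 beside -0.03 over all genes. The genes of this paragraph were picked after their values were seen. WFIKKN2 went from 9.94 to 0.186 RPKM, FBXO32 from 60.5 to 7.25 RPKM and TRIM63 from 3.59 to 0.24 RPKM. INHBA went from 3.95 to 0.548 RPKM. The smooth muscle markers were lower in the same POST samples, ACTG2 at 663 and 34.5 RPKM and MYH11 at 469 and 21.6 RPKM. In POST uterus, where MYH11 stood at 727 RPKM, WFIKKN2, FBXO32 and TRIM63 stood at 17.5, 28.4 and 5.24 RPKM. The part of smooth muscle RNA in the endometrium differences was not tested. TDGF1, a co-receptor that blocks activin-type signals, went from 1.202 to 1058 RPKM in endometrium and from 0.779 to 273 RPKM in uterus. FST stood at 8.16 and 24.0 RPKM in endometrium and at 4.802 and 11.51 RPKM in uterus. It was past 2-fold in both, as 23.9% and 12.6% of all genes were. In uterus TDGF1 was the 1 gene of the list past the 4-fold rule, which 1.34% of all genes passed on that side. In ovary none of 26 passed it, where 1.94% of all genes did in either direction. FST stood there at 282 and 266 RPKM, far above MSTN.

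**Figure D5:**
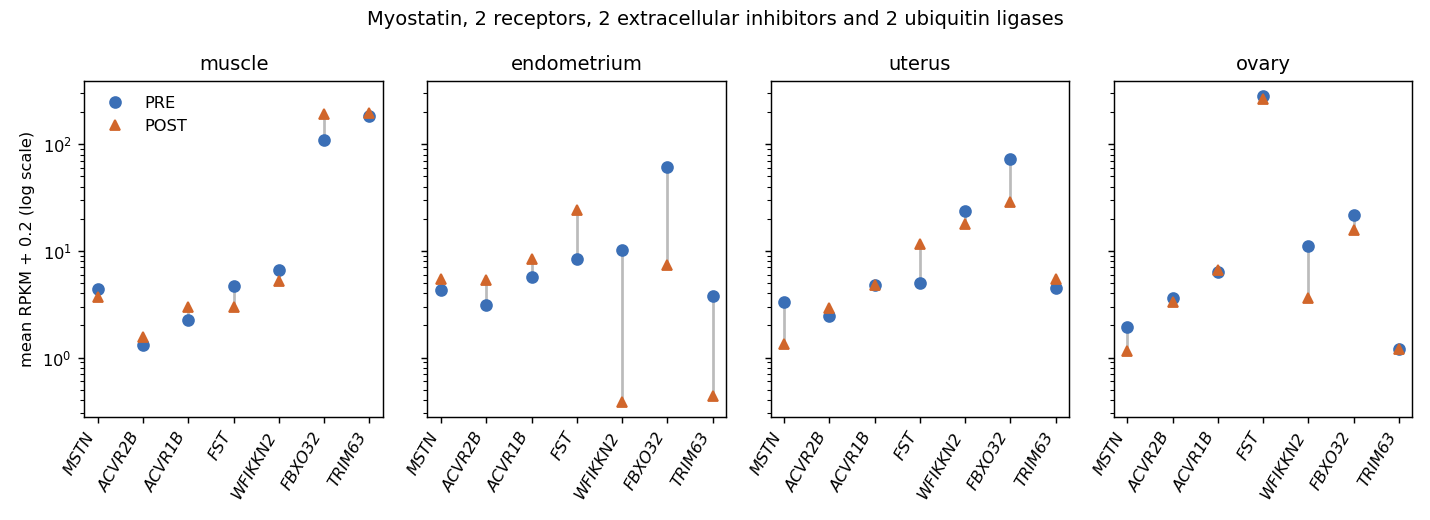
Mean RPKM plus 0.2, on a log axis, of MSTN and 6 genes of its pathway in the 4 tissues with most MSTN; circles are PRE and triangles POST group means. MSTN lies within 1 order of magnitude across the 4 tissues, and WFIKKN2, FBXO32 and TRIM63 are lower in POST than in PRE endometrium.

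The genes named here as most similar in pattern over the 16 group means had their highest mean in muscle for the 4 myogenic factors. Those named for MSTN had it in muscle or endometrium, and those named for PAX7 in pituitary gland. These correlations are across group means of 8 animals, of which the tissues share animals, and are given as a description. Among 15812 genes, MYOG was closest to TRIM72, KCNA7 and SMYD1, at a Pearson's r of 0.9993, 0.99897 and 0.9988. MYOD1 was closest to LBX1 at 0.996, BEST3 at 0.995 and MYO18B at 0.995, MYF5 to TP63 and COX6A2 at 0.986 and to MYOG at 0.983. MYF6 was closest to ALPK2 at 0.982 and TNNI2 and SYPL2 at 0.975. Between the 4 factors r ran from 0.962 to 0.994. A single tissue, muscle, sets these values.

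MSTN was closest to ARID5B at 0.942, EIF2C4 at 0.929 and MEMO1 at 0.904, and its r with the 4 factors ran from 0.360 to 0.461. Among the genes closest to PAX7 were TSHR at 0.907 and KCNT1 at 0.880, both with their highest mean in pituitary gland. The r of PAX7 was 0.209 to 0.292 with the 4 factors and -0.22 with MSTN.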

How the data were processed

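RNA of 8 tissues from PRE and POST heifers was sequenced as TruSeq libraries, and groups followed the sample labels. The authors used CLC Genomics Workbench and the UMD3.1 assembly to map reads, counted unique reads per gene and divided by exon length and library total. They deposited the mean unique reads and the mean RPKM of each of 16 groups for 24616 genes. No values of single libraries were used, so the planned design holds no test, and differences, folds, shares and entropies were computed from the group means, with 0.2 added to RPKM before the log2. The members and gene lists were chosen with earlier results of these data known. Named genes were the 6 members, up to 4 genes of each list with the largest difference in muscle among those with a mean of at least 1 RPKM there, those past the 4-fold rule, and the 3 named genes most like a member, taken among genes with at least 1 RPKM in 1 group. Others are described as examples, chosen after their values were seen. A result that this rule would name is not reported here. Symbols came from the gene names in the values, from the study's pairing of identifiers with symbols for 1993 genes, and from 16 entry names paired by hand, so some genes of the lists were not matched. Alternatives were 1 or 0.05 added to RPKM, a 2-fold rule, no limit or a limit of 1 RPKM, reads scaled to the group total (CPM), centring on the median of genes at 5 RPKM or more, the sum of all rows of a symbol, and linear entropy. The counting rules were tested on simulated data. Depth per group was 17109554 to 27132722 summed mean reads, and a mean under 0.2 RPKM rests on few reads. The work used Python 3.11.15, numpy 2.4.6, scipy 1.17.1, pandas 2.3.3 and matplotlib 3.10.9.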

Additional observations from a re-analysis of the deposited data

How the results depend on the processing

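The count of members past the rule was 1 in hypothalamus, PAX7, and 0 in the other tissues. It was 0 in hypothalamus with 1 added to RPKM and with a limit of 1 RPKM, and 1 in ovary, PAX7, with 0.05 added, with reads scaled to the group total and with a 2-fold rule. It was also 1 in uterus, MSTN, with a 2-fold rule. The remaining 58 of 64 counts did not move. In muscle the differences between stages ran from 0.19 to 0.43 for MYF5, -0.27 to -0.20 for MSTN, 0.23 to 0.27 for MYOG, 0.04 to 0.17 for PAX7, -0.10 to -0.03 for MYOD1 and -0.06 to -0.02 for MYF6 over the alternatives, and none changed sign. The muscle level of MYF5 over the next tissue ran from 0.60 to 2.88 in PRE and from 0.75 to 2.95 in POST heifers, so whether it passes 4-fold depends on the amount added. No paired analysis was possible because the values are group means and PRE and POST are different animals. For the same reason no replicate could be left out, and the spread between heifers is unknown.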
